A study of Mus musculus with 4 samples.

Results

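The cells of the P6 mouse tibia called monocytes here were chosen by the UMIs of Ly6c2 and Ccr2, which mark classical monocytes. They were 221 of the 8256 cells kept for analysis, or 2.68% of them (2.34% to 3.05%, exact binomial interval). The count matrix held 14181 barcodes in all. Whether the 221 cells include progenitors of monocytes was not tested. A UMI is 1 counted RNA molecule. A barcode was kept with at least 1600 genes and at most 10% of its UMIs from mitochondrial genes. A monocyte had at least 5 Ly6c2 UMIs and at least 2 Ccr2 UMIs, and stayed under upper limits for genes of other cell types: the C1q genes of macrophages (C1qa, C1qb and C1qc, under 10 UMIs per 10000 UMIs of the cell), Elane of promyelocytes (under 10 per 10000), Ngp of neutrophil precursors (under 100 per 10000), Siglech of plasmacytoid dendritic cells and Cd79a of B cells (under 5 UMIs each), and Col1a1 and Col2a1 of bone and cartilage (under 50 per 10000 each).

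The study profiled single cells from the proximal and distal tibia of a male mouse at postnatal day 6 (P6) to follow hypertrophic chondrocytes into the osteoblast lineage. The genotype was Col10a1Cre;Rosa26-Tdtomato;Irx3 +/Δ;Irx5 +/-, named in the labels as the Irx3/5 heterozygous control: Cre came from Col10a1, a gene of hypertrophic chondrocytes, 1 Irx3 allele was deleted in that lineage by the study's methods, and 1 Irx5 allele was null. Both tibiae of 1 mouse were cut up, digested with dispase and collagenase and pooled, and the 4 sequencing entries hold 1 library. There was 1 group, so no test between animals was possible, every interval below covers counting error only, and the reporter is switched on by Col10a1 Cre, which is directed at hypertrophic chondrocytes. No library of wild type Irx3 and Irx5, no other age and no sorted blood or marrow sample was analysed here.

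Monocytes are blood phagocytes made in the bone marrow from progenitors that also give rise to neutrophils. Classical monocytes carry Ly6C at the surface and leave the marrow by way of the chemokine receptor CCR2. They enter tissues, where they can become macrophages or, under CSF1 and RANKL, osteoclasts, and they answer microbial products with cytokines such as interleukin 1 beta and interleukin 6.

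The results turn on Ly6c2, which chose the cells, and on 3 cytokine genes, Il1b, Il6 and Cxcl2, which were at least 2-fold higher in the monocytes than in 3 other myeloid classes. Ly6c2 lies on mouse chromosome 15 (GRCm38, chr15:75108158-75111970, minus strand), 59327 bases from its close copy Ly6c1 (chr15:75044018-75048830, minus strand). The last 300 bases of the longest transcripts of the pair aligned at 288 of 307 positions (93.8%), with identical runs of up to 124 bases, so reads from the 3′ end cannot always tell them apart and the counts of the pair are uncertain. The 2 promoter windows printed for the pair aligned end to end at 47.6% of positions, and they shared a run of 22 bases that lies at different distances from the start. For Ly6c1 a second start is annotated, and its window (chr15:75048788-75049087, not printed) aligned with that of Ly6c2 at 63.6% of positions, with identical runs of up to 20 bases. The windows below run from 250 bases before the annotated start to 50 bases after it, in GRCm38.p6, from RefSeq, with motif matches in capitals. The motifs searched on both strands were GAGGAAGT (ETS, the core bound by PU.1), GGGANTTTC (NF-kB), TGANTCA (AP-1) and TTGNGNAA (C/EBP), and of 32851 promoter windows 3.20%, 1.11%, 7.81% and 13.3% held them.
Ly6c2: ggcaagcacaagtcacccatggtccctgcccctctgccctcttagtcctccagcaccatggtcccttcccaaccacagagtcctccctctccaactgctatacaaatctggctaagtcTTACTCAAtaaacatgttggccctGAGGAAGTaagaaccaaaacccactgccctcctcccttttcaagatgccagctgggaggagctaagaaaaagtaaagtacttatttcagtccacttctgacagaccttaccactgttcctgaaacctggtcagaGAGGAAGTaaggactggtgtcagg
Ly6c1: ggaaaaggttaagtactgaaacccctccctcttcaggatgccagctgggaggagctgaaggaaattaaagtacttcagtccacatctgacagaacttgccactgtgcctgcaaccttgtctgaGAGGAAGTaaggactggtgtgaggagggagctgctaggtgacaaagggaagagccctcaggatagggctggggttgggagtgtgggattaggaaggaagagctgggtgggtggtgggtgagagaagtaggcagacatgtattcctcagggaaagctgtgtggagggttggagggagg
Il1b: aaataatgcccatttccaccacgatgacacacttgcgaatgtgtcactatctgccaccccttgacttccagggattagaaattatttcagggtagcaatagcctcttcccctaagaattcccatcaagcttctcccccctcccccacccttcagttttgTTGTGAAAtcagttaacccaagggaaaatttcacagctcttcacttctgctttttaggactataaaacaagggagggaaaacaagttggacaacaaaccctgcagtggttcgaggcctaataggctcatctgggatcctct
Il6: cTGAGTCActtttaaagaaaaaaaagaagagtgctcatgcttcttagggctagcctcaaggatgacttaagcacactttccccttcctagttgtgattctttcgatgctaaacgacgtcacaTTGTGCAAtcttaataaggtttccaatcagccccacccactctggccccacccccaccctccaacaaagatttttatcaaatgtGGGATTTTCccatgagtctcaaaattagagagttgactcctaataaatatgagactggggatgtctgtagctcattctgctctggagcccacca
Cxcl2: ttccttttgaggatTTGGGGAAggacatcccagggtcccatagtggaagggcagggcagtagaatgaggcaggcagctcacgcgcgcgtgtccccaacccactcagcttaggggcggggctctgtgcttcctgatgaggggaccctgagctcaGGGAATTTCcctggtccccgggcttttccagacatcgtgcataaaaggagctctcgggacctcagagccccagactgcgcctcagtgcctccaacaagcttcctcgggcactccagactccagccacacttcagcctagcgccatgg
The Ly6c2 window (chr15:75111922-75112221, minus strand) held GAGGAAGT at −108 to −101 and at 27 to 34 from the start, and a C/EBP match at −132 to −125. A second start of Ly6c2, 34 bases away, is annotated too, and from it the same matches lie at −142 to −135, −8 to −1 and −166 to −159. The Ly6c1 window (chr15:75048614-75048913, minus strand), one of 2 annotated starts, held 1 ETS match at −127 to −120, and the window of the other start held no match to any of the 4 motifs. Il1b (chr2:129371090-129371389, minus strand) held a C/EBP match at −91 to −84. Il6 (chr5:30012864-30013163, plus strand) held an NF-kB match at −44 to −36, an AP-1 match at −249 to −243 and a C/EBP match at −128 to −121. Cxcl2 (chr5:90903649-90903948, plus strand) held an NF-kB match at −97 to −89 and a C/EBP match at −236 to −229. None of these letters was found in the window of Ccr2, which says nothing about the factors there. The matches are descriptions of the sequence. Binding was not measured.

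The rule set the levels of its own genes, so they are given as a description. Ly6c2 ranged from 5 to 62 UMIs per monocyte with a median of 13, and Ccr2 from 2 to 32 with a median of 3. Of the cells kept, 1059 reached the Ly6c2 limit, 260 of these also reached the Ccr2 limit, and 39 of the 260 were set aside by an upper limit. At the edge, 19 monocytes had exactly 5 Ly6c2 UMIs while 20 cells failed only by having 4, and 61 monocytes had exactly 2 Ccr2 UMIs while 77 cells failed only by having 1. Elane failed 19 cells on its own, the nearest at 10.0 per 10000 against 9.30 in the nearest monocyte. The other upper limits left wider gaps. The nearest cells inside and outside stood at 8.98 and 12.7 per 10000 for the C1q genes, 97.6 and 273.9 for Ngp, 40.2 and 59.6 for Col2a1 and 30.6 and 162 for Col1a1, and at 3 and 7 UMIs for Cd79a and 1 and 7 for Siglech. Of the neighbours of Ly6c2 in its family, Ly6e stood at 616 CPM (UMIs per 1000000) over all monocytes, Ly6c1 at 30.4, the neutrophil gene Ly6g at 3.11 and Ly6a at 2.17. The limit on Ccr2 has no gap beside it, and the number of monocytes moved between 142 and 298 when single limits were changed.

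**Figure D1:**
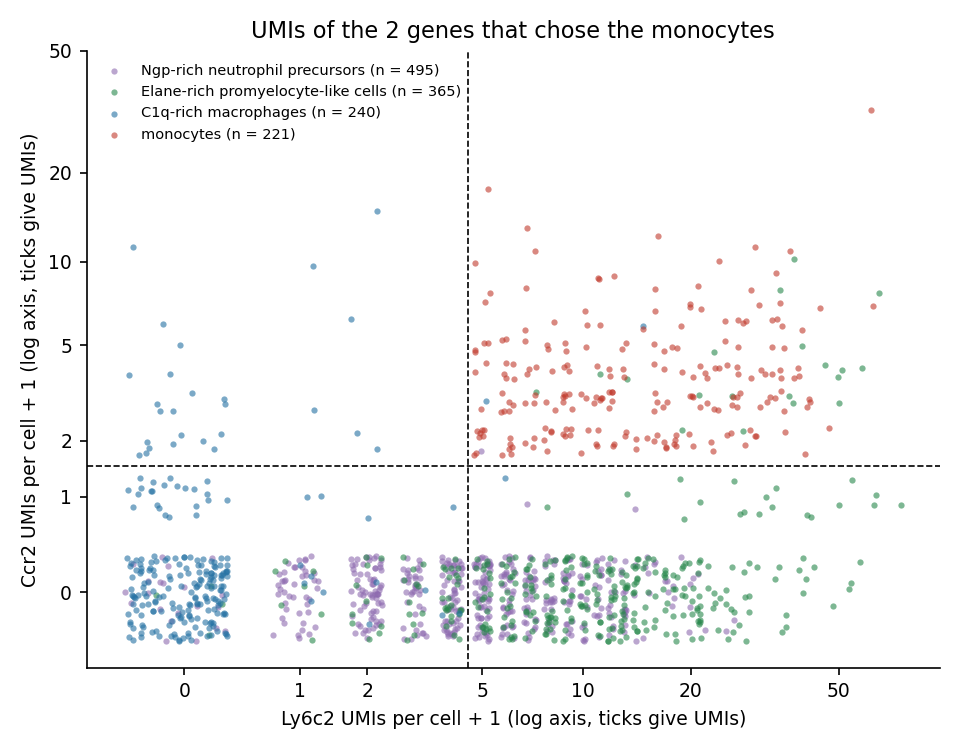
UMIs per cell of Ly6c2 (horizontal axis, log axis) and Ccr2 (vertical axis, log axis) in the 221 monocytes, 240 C1q-rich macrophages, 365 Elane-rich promyelocyte-like cells and 495 Ngp-rich neutrophil precursors, 1 point a cell, with points shifted slightly at random. Dashed lines mark the limits of 5 Ly6c2 UMIs and 2 Ccr2 UMIs; most promyelocyte-like cells and neutrophil precursors with Ly6c2 UMIs lay at 0 Ccr2 UMIs.

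The 221 monocytes held 3220136 UMIs. Depth ran from 4365 to 56827 UMIs per cell with a median of 12578, the median cell had 3267 genes, and a median of 4.11% of UMIs were mitochondrial. The other 3 myeloid classes gave the comparisons, each set by the same kind of limits: 240 macrophages rich in the C1q genes (median 13407.5 UMIs), 365 promyelocyte-like cells rich in Elane (16487 UMIs) and 495 neutrophil precursors rich in Ngp (11017 UMIs). In addition, 704 B lineage cells and 1965 chondrocytes showed how many UMIs of a gene reach cells that should not express it. Levels are given as UMIs per 1000000 UMIs of the class (CPM). A level refers to one gene across classes, never to one gene against another.

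The label was checked against monocyte markers that the rule did not use. F13a1, the coagulation factor XIII A chain, stood at 347 CPM in monocytes (327 to 368), 37.0 in macrophages, 52.8 in promyelocyte-like cells and 9.03 in neutrophil precursors. Ms4a6c, a membrane protein gene of monocytes and macrophages, stood at 531, 416, 56.0 and 6.85 CPM in the same order. With every cell drawn down to 5000 UMIs, which left out 3 monocytes, F13a1 was found in 75.2% of 218 monocytes (68.9% to 80.8%) and in 4.36% of B lineage cells, and Ms4a6c in 90.8% (86.2% to 94.3%) and 1.01%. Without drawing down, the shares in monocytes were 89.6% and 98.2%. Both markers were thus spread through the class and were not held by a few cells.

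Csf1r, the receptor for the growth factor of macrophages, was found in 63.3% of monocytes after drawing down, against 89.8% of macrophages, 9.62% of promyelocyte-like cells and 2.63% of neutrophil precursors. Fn1 (fibronectin) at 1172 CPM, Vcan (versican) at 87.0 CPM and Klf4, a transcription factor of monocyte differentiation, at 186 CPM all had their highest level of the 4 classes in the monocytes. Chil3, a chitinase-like gene often used for classical monocytes, went against the label. Its level was 9.63 CPM in monocytes, 4.80 in macrophages, 107 in promyelocyte-like cells and 3469.8 in neutrophil precursors, and after drawing down it was found in 2.75% of monocytes against 94.3% of neutrophil precursors. Irf8, a transcription factor that directs progenitors to monocytes, was lower in monocytes (77.0 CPM) than in macrophages (221 CPM). It was above the levels in promyelocyte-like cells (30.9 CPM) and neutrophil precursors (7.36 CPM). The class also held many dividing cells and cells with promyelocyte genes, described below. At least 3 UMIs of the proliferation genes Top2a and Mki67 were found in 118 monocytes (53.4%). The granule protease genes Mpo, Prtn3 and Ctsg reached 5 UMIs per 10000 in 65 (29.4%). Ly6c2 itself was within 2-fold of its level in promyelocyte-like cells. Whether part of the class are progenitors of monocytes was not tested.

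Of the lists for other cell types, erythroid markers had the highest sum in the monocytes, followed by neutrophil markers and by progenitor and promyelocyte markers, and for several lists a few monocytes held most of the UMIs. Neutrophil markers summed to 3245 CPM in monocytes, led by S100a8, against 1559 in macrophages, 47174 in promyelocyte-like cells and 245167 in neutrophil precursors. The 35 monocytes with at least 50 UMIs of S100a8 and S100a9 per 10000 held 82.3% of the UMIs of these genes. Progenitor and promyelocyte markers summed to 1438 CPM, led by Prtn3, against 1096 in macrophages and 16876 in promyelocyte-like cells. Prtn3 stood at 869 CPM in monocytes and 11.6 in macrophages, so the sum in macrophages came mostly from other genes of the list. T and NK markers summed to 38.8 CPM over 10 genes, 4 of them at 0 UMIs and Il7r the most abundant. B lineage markers summed to 124 CPM against 6483 in B lineage cells, with Ighm the most abundant. Plasmacytoid dendritic cell markers summed to 202 CPM, led by Tcf4. Endothelial markers summed to 125 CPM (led by Pecam1), osteoblast and stromal markers to 442 (led by Ibsp) and chondrocyte markers to 268 (led by Col9a1) against 21006 in chondrocytes. Osteoclast markers summed to 113 CPM, led by Acp5, and the calcitonin receptor gene Calcr, a defining osteoclast marker, was at 0 UMIs. Of the basophil and mast cell list, Il6 was the only gene at 10 CPM or more and 3 genes were at 0. Erythroid markers summed to 4309.8 CPM, led by the globin gene Hbb-bs, against 9306 in macrophages and 12595 in B lineage cells. Of the haemoglobin UMIs in monocytes, 88.4% lay in 4 cells. Likewise 3 cells held 86.5% of the endothelial UMIs (Cdh5, Kdr and Emcn), 7 cells held 89.7% of those of the bone matrix genes Spp1 and Ibsp, 5 cells held 97.4% of Retnlg and 3 cells 94.3% of Fabp4. Together 20 of 221 monocytes (9.05%) carried such genes, and they included 8 of the 9 monocytes (4.07% of the class) that Scrublet, a doublet caller, marked. These 20 cells had a median of 18231 UMIs against 12321 in the other 201. Values without these 20 cells are given below beside the results they bear on most.

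Compared with the C1q-rich macrophages of the same bones, the monocytes had more RNA of some granule, cytokine and adhesion genes and less of most macrophage genes and of many genes of antigen presentation and lysosomes. Of 6181 genes with enough UMIs to compare (at least 20 CPM in either class and at least 50 UMIs over both), 361 (5.84%) were at least 2-fold higher in monocytes and 504 (8.15%) at least 2-fold lower, on a log2 scale with 10 CPM added to each level, which shrinks the difference of low genes. The median gene differed by −0.02 on that scale. With 1 library there was no test, and higher and lower mean at least 2-fold throughout. Of the monocyte identity list, 10 of 17 measured genes were higher and 0 lower (median log2 difference 1.74), and of the macrophage list 0 of 16 were higher and 15 lower (median -2.42). Of the neutrophil granule list 6 of 12 were higher and 0 lower. A gene that reached 20 CPM in 1 class alone could hardly avoid a difference, and genes that reached it in both are called shared below. Of all shared genes 4.16% were higher and 4.55% lower than in macrophages, 9.63% and 2.17% than in promyelocyte-like cells, and 17.6% and 4.06% than in neutrophil precursors. Shared macrophage genes had 0 of 9 higher and 8 lower against macrophages, shared monocyte identity genes 7 of 14 higher and 0 lower against macrophages and shared neutrophil granule genes 2 of 8 higher and 0 lower against macrophages. These counts leave out the genes of the rule, and the C1q limit separated the groups by construction.

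Besides cytokines, the genes with the largest differences in favour of monocytes encoded granule proteins, a homing molecule and acute phase proteins. Prtn3 (proteinase 3) stood at 869 CPM against 11.6, a log2 difference of 5.35 (counting interval 5.11 to 5.59), and Mpo (myeloperoxidase) at 304 against 6.78 (4.23, 3.98 to 4.48). Itgb7, the integrin beta 7 chain used in homing, stood at 143 against 4.24 CPM (3.43, 3.18 to 3.68). F13a1 differed by 2.93. Plac8 (1647 against 125 CPM), the haptoglobin gene Hp (439 against 26.3) and Ifitm6 (268 against 17.8), a member of the interferon-induced transmembrane family, were among the 10 leading genes. So were Gpr141, a receptor gene at 237 against 11.9 CPM, and Saa3, an acute phase gene at 156 CPM against 2 UMIs in all macrophages. Of the UMIs of Saa3, 60.8% came from 10 monocytes. For Mpo the share was 73.1%, and the median monocyte had none. With Elane under 2 per 10000, the log2 difference of Mpo was 2.79 in place of 4.23.

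The leading genes lower in monocytes included several of macrophages. Apoe (apolipoprotein E) stood at 469 CPM against 9878 in macrophages, a log2 difference of -4.37 (-4.44 to -4.30). Pf4, a chemokine gene of platelets and some macrophages, stood at 6.83 against 936 CPM, Ms4a7 at 4.66 against 618 and the adhesion gene Vcam1 at 4.35 against 426. Adgre1, which encodes the macrophage antigen F4/80, stood at 49.7 against 328 CPM. Fcna (ficolin A), Pltp (phospholipid transfer protein), Dab2 (an endocytic adaptor), Gdf15 and Rgs1 completed the leading genes with H2-Aa, and they differed by between −4.90 and −3.53. With at least 3 Ly6c2 UMIs asked for, Rgs1 differed by -2.89. Dab2 differed by -4.27 in place of -3.60 with the Ly6c2 limit set per 10000 UMIs. The lysosome list had 10 of 21 genes lower and 1 higher, for example the protease genes Ctsb (533 against 2633 CPM) and Ctsd (331 against 1498 CPM).

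Mitochondrial content moved with this comparison. Macrophages had a median of 5.31% mitochondrial UMIs against 4.11% in monocytes, and a limit of 5% kept 191 of 221 monocytes but 93 of 240 macrophages. Under that limit the log2 difference of Il1b was 2.30 in place of 3.18, that of Cd14 1.63 in place of 2.42, that of Hp 2.73 in place of 3.63, and that of Nlrp3 0.50 in place of 1.22. Cxcl2 (0.44 in place of 1.02) and Irf8 (-0.52 in place of -1.41) also came within 2-fold, as did Nlrp3, while Il1b, Cd14 and Hp stayed at least 2-fold higher in monocytes. Among genes lower in monocytes, the difference was -5.10 in place of -5.81 for Pf4, -4.08 in place of -4.93 for Vcam1 and -2.56 in place of -3.63 for Fcna. Those of H2-Aa (-4.32 in place of -3.55) and Cd74 (-3.69 in place of -2.98) grew instead.

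**Figure D2:**
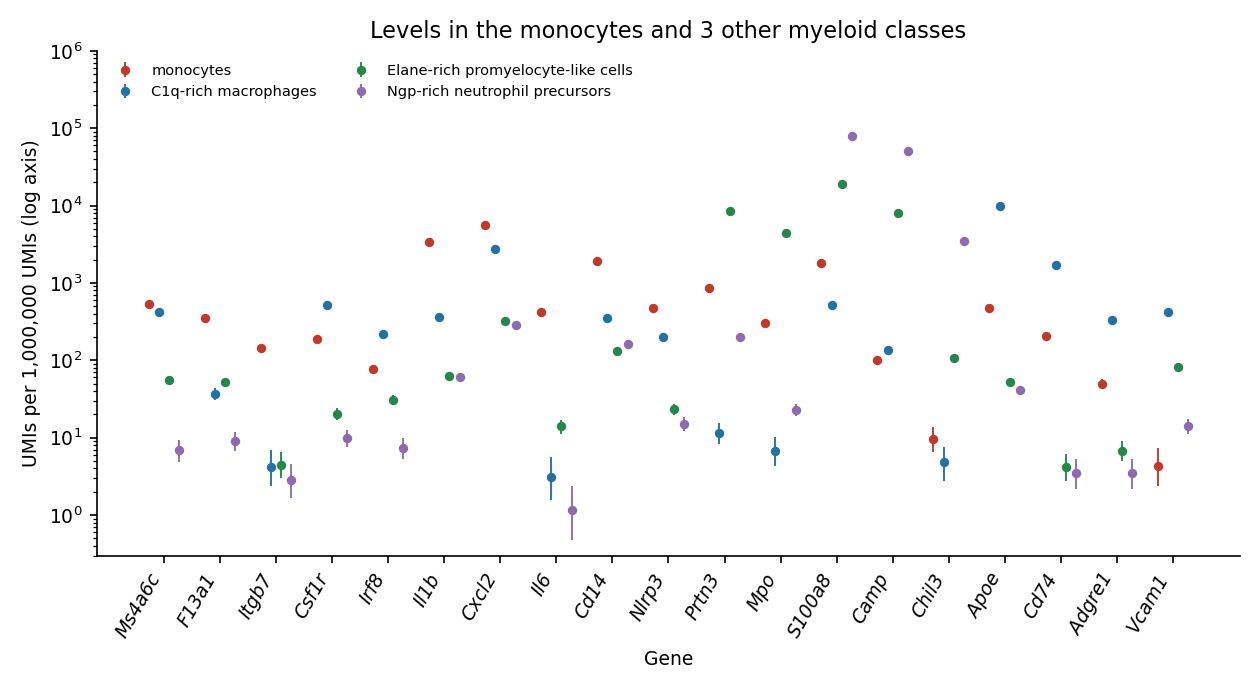
Levels of 19 genes in UMIs per 1000000 UMIs (log axis) in the monocytes and the 3 other myeloid classes, as points with exact Poisson intervals of the summed UMIs, which cover counting error only. Il1b reached 3397 in monocytes and at most 367 in the other classes, while Chil3, Camp and S100a8 were highest in neutrophil precursors and Apoe, Cd74 and Vcam1 in macrophages.

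Against the promyelocyte-like cells, which share Ly6c2, the monocytes had more RNA of most lysosome genes and less of most neutrophil granule genes. Of 18 chemokine and cytokine genes 14 were higher and 1 lower, but 10 of the 18 reached 20 CPM in monocytes alone. Of the 8 shared ones, 4 were higher and 1 lower. The limits on Elane separated these classes by construction. Of 5806 genes, 927 (16.0%) were higher in monocytes and 189 (3.26%) lower, and the median gene was 0.20 higher on the log2 scale. In the monocyte identity list 13 of 18 genes were higher and 1 lower, and in the macrophage list 8 of 11 were higher and 3 lower. In the neutrophil granule list 4 of 15 were higher and 10 lower. Of the shared genes, the monocyte identity list had 7 of 11 higher and 0 lower against promyelocyte-like cells, the macrophage list 1 of 2 higher and 1 lower against promyelocyte-like cells and the neutrophil granule list 2 of 10 higher and 7 lower against promyelocyte-like cells. S100a4, a calcium-binding protein gene, stood at 800.0 CPM against 15.1 (5.01, 4.83 to 5.20), Fn1 at 1172 against 51.1 (4.27, 4.14 to 4.41), and Lgals3 (galectin 3) at 2186 against 107 (4.23, 4.13 to 4.33). Cd83, an activation marker of antigen-presenting cells, differed by 5.20 and Ctss (cathepsin S) by 4.23. The genes lower in monocytes included the antimicrobial peptide gene Camp (101 against 8040.2 CPM), Ms4a3, a marker of granulocyte and monocyte progenitors (14.6 against 1062), and Ctsg (cathepsin G, 129 against 2366). Without the 20 monocytes with genes of other cell types, the log2 difference of Camp was -7.88 in place of -6.19. With Elane under 2 per 10000, that of Ctsg was -5.57 in place of -4.09.

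Against the neutrophil precursors the background was broader: of 5772 genes, 1353 (23.4%) were higher in monocytes and 359 (6.22%) lower, with the median gene 0.48 higher. In neutrophil precursors S100a8 alone stood at 78448 CPM, and CPM are shares of a fixed total. The part of this in the differences was not tested. In the monocyte identity list 12 of 19 genes were higher and 4 lower, in the neutrophil granule list 3 of 16 and 10, and in the macrophage list 7 of 10 and 2. With shared genes alone, the monocyte identity list had 4 of 9 higher and 2 lower against neutrophil precursors, the neutrophil granule list 2 of 11 higher and 6 lower against neutrophil precursors and the macrophage list 1 of 2 higher and 1 lower against neutrophil precursors. The 4 lower genes of the monocyte list were Chil3, Hp, Cd177 and Itgam, all of which neutrophils also use. Ms4a6c differed by 5.01 (4.81 to 5.20), F13a1 by 4.23 (4.03 to 4.43) and the protease gene Ctsc by 4.54 (4.37 to 4.71). Camp was 51206 CPM in neutrophil precursors, the iron-binding granule gene Ltf 6289.9 CPM and the lipocalin gene Lcn2 9685 CPM, against 101, 35.4 and 72.7 CPM in monocytes. Without the 20 monocytes with genes of other cell types, the log2 difference of Camp was -10.55 in place of -8.85. That of Ltf was -8.71 in place of -7.12, and that of Lcn2 -8.14 in place of -6.87. The myeloid genes Lyz2 (lysozyme, 7987 against 6131 CPM), Csf3r (the G-CSF receptor, 44.4 against 35.8) and Mgst1 (282 against 285) were within 2-fold of each other.

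Il1b, Cxcl2 and Il6 were higher in the monocytes than in each of the other 3 classes. Il1b, which encodes interleukin 1 beta, stood at 3397 CPM in monocytes (3334 to 3461), 367 in macrophages, 61.9 in promyelocyte-like cells and 61.7 in neutrophil precursors. Cxcl2, a chemokine that draws neutrophils, stood at 5548, 2726, 321 and 287 CPM. Il6, which encodes interleukin 6, stood at 423, 3.11, 14 and 1.17 CPM. Without the barcodes that Scrublet marked, the log2 difference from neutrophil precursors was 6.90 in place of 5.57 for Il1b and 5.61 in place of 4.23 for Cxcl2. For Cxcl2 the macrophages came nearest, at a log2 difference of 1.02, which was 0.84 with at least 10 Ly6c2 UMIs asked for. The chemokine and cytokine list had 7 of 21 genes higher and 5 lower against macrophages, 14 of 18 higher and 1 lower against promyelocyte-like cells, and 16 of 18 higher and 0 lower against neutrophil precursors. Of all genes, 5.84%, 16.0% and 23.4% were higher in these comparisons and 8.15%, 3.26% and 6.22% lower, and the list counts below are to be read against these shares. Shared cytokine genes had 6 of 17 higher and 2 lower against macrophages, 4 of 8 and 1 against promyelocyte-like cells, and 5 of 7 and 0 against neutrophil precursors.

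Not every cytokine gene followed this order. Tnf stood at 122 CPM in monocytes and 218 in macrophages, Il1a at 124 and 125, and Cxcl1 at 172 and 254, all within 2-fold. The chemokine genes Cxcl16 (34.8 against 408 CPM), Ccl4 (43.8 against 119.7), Ccl7 (6.21 against 46.9) and Ccl12 (0 UMIs in monocytes against 41.2 CPM) and the cytokine gene Il18 (11.2 against 103) were the 5 lower in monocytes. Ccl2, the ligand of CCR2, stood at 188 CPM in monocytes, 163 in macrophages, 5.59 in promyelocyte-like cells and 7.52 in neutrophil precursors. Of its UMIs in monocytes, 35.9% came from 1 cell and 67.8% from 10, and the median monocyte had none.

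Cell by cell, the cytokine genes varied widely. Il1b ran from 0 to 261 UMIs per 10000 with quartiles of 2.83 and 64.4 around a median of 23.6, and Cxcl2 from 0 to 420.3 with a median of 53.9. After drawing down, Il1b was found in 81.7% of monocytes (75.9% to 86.6%), 23.7% of macrophages, 8.79% of promyelocyte-like cells, 6.06% of neutrophil precursors, 4.52% of B lineage cells and 0.919% of chondrocytes. Il6 was found in 45.0% of monocytes (38.2% to 51.8%) and in at most 3.57% of cells of the other 5 classes. Before drawing down, the shares in monocytes were 86.9% and 56.1%. Il6 was the more unequal, with a median of 0.635 and a maximum of 55.6 per 10000, and the top 10 monocytes held 37.2% of its UMIs. Lyz2 varied less, from a lower quartile of 57.0 to an upper of 147 per 10000.

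**Figure D3:**
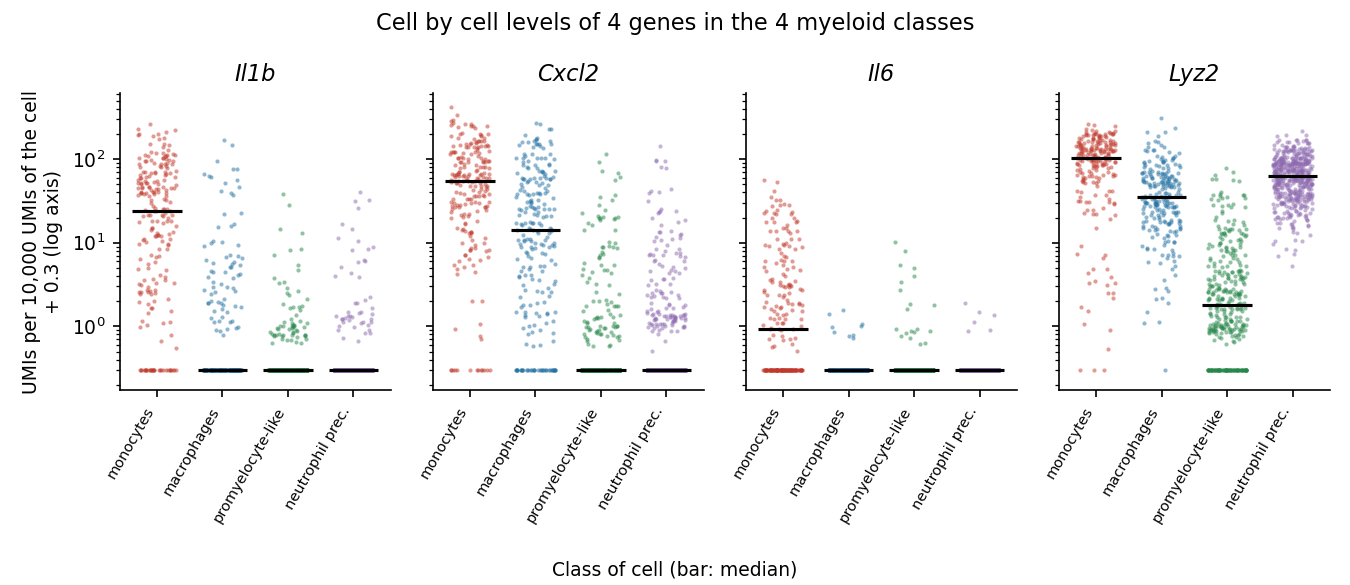
UMIs of Il1b, Cxcl2, Il6 and Lyz2 per 10000 UMIs of the cell (log axis, 0.3 added so that cells at 0 appear at the bottom) in the monocytes, macrophages, promyelocyte-like cells and neutrophil precursors, 1 point a cell with a bar at the median. The medians of Il1b and Il6 were above 0 in the monocytes and at 0 in the other 3 classes.

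Genes that sense microbial products stood beside the cytokines. Cd14, the co-receptor for lipopolysaccharide, was at 1922 CPM in monocytes, 351 in macrophages, 131 in promyelocyte-like cells and 164 in neutrophil precursors, and Nlrp3, the inflammasome sensor, at 477, 199, 23.4 and 15.2. Clec4e, a receptor for microbial glycolipids, stood at 1015 CPM against 279.6 in macrophages, Tlr2 at 612 against 345, and Tlr4, the receptor for lipopolysaccharide itself, at 13.7 CPM in monocytes. The list had 4 of 19 genes higher and 1 lower against macrophages, 11 of 17 and 1 against promyelocyte-like cells, and 12 of 17 and 2 against neutrophil precursors. Shared genes of microbial sensing had 4 of 15 higher and 0 lower against macrophages, 7 of 12 and 1 against promyelocyte-like cells, and 5 of 9 and 2 against neutrophil precursors. Ptgs2, which makes prostaglandins, stood at 430.1, 70.3, 6.52 and 17.4 CPM, and Thbs1 (thrombospondin 1) at 4614, 666, 277 and 1428. Under the limit of 5% mitochondrial UMIs described above, the log2 difference from macrophages was 1.60 in place of 2.45 for Ptgs2 and 1.85 in place of 2.77 for Thbs1. The decoy receptor gene Il1r2 was also higher in monocytes (149 CPM) than in macrophages (19.8).

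A list of 20 inflammatory genes put together after their values were seen had 13 genes higher and 1 lower against macrophages, 18 and 1 against promyelocyte-like cells, and 19 and 0 against neutrophil precursors, and so describes the choice as much as the cells. Shared inflammatory genes had 10 of 17 higher and 1 lower against macrophages, 8 of 10 and 1 against promyelocyte-like cells, and 8 of 9 and 0 against neutrophil precursors. Immediate early genes, which cells switch on within minutes of many stimuli, were listed in the same way. Of 19 measured, 5 were higher and 2 lower against macrophages, 15 of 18 higher and 0 lower against promyelocyte-like cells, and 14 of 18 higher and 0 lower against neutrophil precursors. Shared immediate early genes had 5 of 18 higher and 1 lower against macrophages, 10 of 13 and 0 against promyelocyte-like cells, and 12 of 16 and 0 against neutrophil precursors. Nr4a1 stood at 298 CPM against 77.9 in macrophages and Socs3, a feedback inhibitor of cytokine signalling, at 234 against 94.9. Fos (279 against 187) and Egr1 (83.5 against 66.4) were within 2-fold, and Atf3 was lower (62.7 against 203). The cells came through an enzymatic digest, of which no undigested control was analysed here, and its part in these levels was not tested.

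Of the interferon-induced list, 7 of 13 measured genes were higher and 0 lower against macrophages, 9 of 12 and 1 against promyelocyte-like cells, and 10 of 12 and 1 against neutrophil precursors. Shared interferon-induced genes had 4 of 9 higher and 0 lower against macrophages, 2 of 4 and 1 against promyelocyte-like cells, and 3 of 5 and 1 against neutrophil precursors. The members that were higher were chiefly transmembrane and nuclear family genes, such as Ifitm3 (1369 against 251 CPM in macrophages), Ifitm1 (73.9 against 5.37) and Ifitm6, of which Ifitm6 was higher still in neutrophil precursors (1099 CPM). Under the limit of 5% mitochondrial UMIs, the log2 difference from macrophages was 1.65 in place of 2.40 for Ifitm3. For Ifitm6 it was 2.38 in place of 3.32. In monocytes Ifit1 had 1 UMI (0.311 CPM) and Isg15 13 UMIs (4.04 CPM), while the interferon-induced genes Bst2 and Irf1 had 236 and 164 UMIs.

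**Figure D4:**
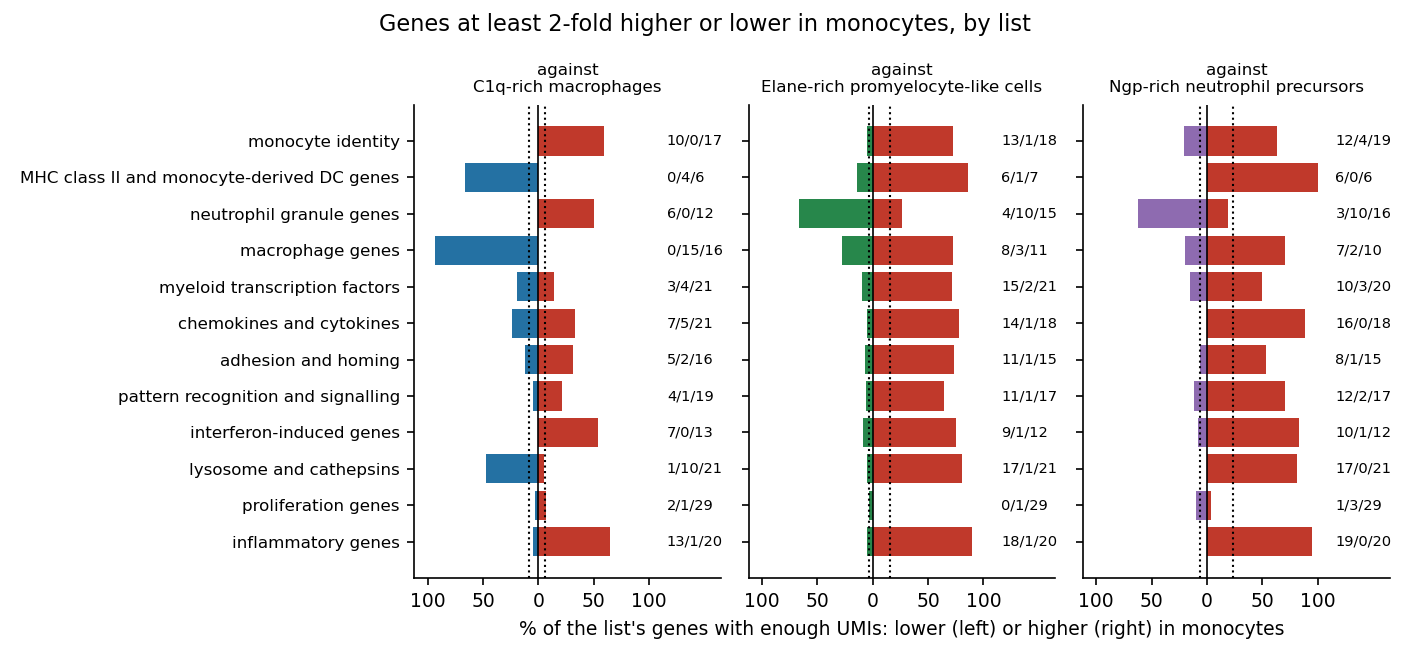
Share of each list's genes with enough UMIs (horizontal axis, %) that were at least 2-fold lower (left) or higher (right) in monocytes than in macrophages, promyelocyte-like cells and neutrophil precursors, with the counts higher/lower/measured beside each bar and the genes of the rule left out. Genes that reached 20 CPM in 1 class alone are included. Dotted lines mark the share of all genes tested (5.84% higher and 8.15% lower in the first panel); the inflammatory list was chosen after its values were seen.

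Among 21 myeloid transcription factor genes measured against macrophages, 3 were higher and 4 lower, against promyelocyte-like cells 15 of 21 were higher and 2 lower, and against neutrophil precursors 10 of 20 and 3. The shares of all genes higher were 5.84%, 16.0% and 23.4%. Shared transcription factor genes had 3 of 19 higher and 3 lower against macrophages, 9 of 13 and 0 against promyelocyte-like cells, and 6 of 14 and 2 against neutrophil precursors. Cebpb stood at 2067 CPM in monocytes, 1042 in macrophages, 548 in promyelocyte-like cells and 598 in neutrophil precursors, and Zeb2 at 857, 535, 237 and 54.8. Spi1, which encodes PU.1, was within 2-fold across all 4 classes (249, 479, 247 and 366 CPM). Cebpe and Gfi1, which direct granulocyte differentiation, were low in monocytes, at 8.38 and 0.311 CPM, against 592 and 15.7 in neutrophil precursors. Id2 stood at 170.2 CPM in monocytes against 775 in macrophages.

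Receptors for migration and growth factors differed gene by gene. Besides Ccr2, the chemokine receptor gene Ccr1 was higher in monocytes (218 CPM) than in macrophages (94.6), promyelocyte-like cells (17.7) and neutrophil precursors (52.5). Cx3cr1, the receptor of patrolling monocytes and many macrophages, was at 9.94 CPM against 143 in macrophages, and Cxcr4, which retains cells in the marrow, at 85.1 against 421. Outside the gene of the rule, 2 of 7 chemokine receptor genes were higher and 2 lower against macrophages, 5 of 6 and 0 against promyelocyte-like cells, and 3 of 8 and 2 against neutrophil precursors. Shared chemokine receptor genes had 2 of 5 higher and 1 lower against macrophages, 2 of 3 and 0 against promyelocyte-like cells, and 2 of 5 and 0 against neutrophil precursors. Of the adhesion list, 5 of 16 were higher and 2 lower against macrophages, 11 of 15 and 1 against promyelocyte-like cells, and 8 of 15 and 1 against neutrophil precursors. Shared adhesion genes had 2 of 11 higher and 1 lower against macrophages, 10 of 13 and 1 against promyelocyte-like cells, and 6 of 12 and 1 against neutrophil precursors. The higher ones included Emb (532 against 80.5 CPM) and the integrin gene Itga4 (129.8 against 51.4). Csf2rb, the shared chain of the GM-CSF receptor, stood at 318 CPM and Csf1r at 187 CPM against 513 in macrophages. Of the growth factor receptor list 3 of 17 genes were higher and 3 lower against macrophages, and 10 of 18 higher and 1 lower against promyelocyte-like cells, with 10 of 17 and 0 against neutrophil precursors. Shared growth factor receptor genes had 1 of 14 higher and 3 lower against macrophages, 7 of 12 and 0 against promyelocyte-like cells, and 4 of 10 and 0 against neutrophil precursors. Of all shared genes, 4.16%, 9.63% and 17.6% were higher in these 3 comparisons and 4.55%, 2.17% and 4.06% lower. The 1 of 14 was near its share.

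Genes of later monocyte fates gave a mixed picture. Of the list for patrolling monocytes, the Ly6C-low form, 3 of 14 genes were higher and 3 lower against macrophages, and the 3 higher were Nr4a1, Spn and Fabp4, the last with 94.3% of its UMIs in 3 cells. Nr4a1, the nuclear receptor needed for patrolling monocytes and also an immediate early gene, stood beside a low Cx3cr1, a Treml4 level of 24.2 CPM and an Ace level of 0.932 CPM. Against promyelocyte-like cells the patrolling list had 8 of 11 higher and 2 lower, and against neutrophil precursors 5 of 11 and 2. Shared patrolling genes had 2 of 8 higher and 1 lower against macrophages, 3 of 6 and 2 against promyelocyte-like cells, and 3 of 7 and 2 against neutrophil precursors. Of osteoclast differentiation genes 0 of 13 were higher and 7 lower against macrophages, 7 of 9 and 0 against promyelocyte-like cells, and 4 of 10 and 1 against neutrophil precursors. Of all genes, 8.15% were lower than in macrophages, and 16.0% and 23.4% higher than in the other classes. Shared osteoclast genes had 0 of 9 higher and 4 lower against macrophages, 4 of 6 and 0 against promyelocyte-like cells, and 1 of 6 and 1 against neutrophil precursors. Tnfrsf11a, which encodes RANK, the receptor for the osteoclast signal RANKL, was at 7.14 CPM in monocytes and 63.3 in macrophages, and after drawing down it was found in 3.67% and 24.6% of cells. Calcr and Oscar, 2 genes of the osteoclast list, had 0 UMIs in every myeloid class, which in monocytes allows a level of up to 0.932 CPM.

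Lysosome genes, of which 10 of 21 were lower than in macrophages, had 17 of 21 higher and 1 lower against promyelocyte-like cells and 17 of 21 higher and 0 lower against neutrophil precursors. Shared lysosome genes had 0 of 20 higher and 10 lower against macrophages, 15 of 19 and 1 against promyelocyte-like cells, and 14 of 18 and 0 against neutrophil precursors. Fc receptor and adaptor genes had 0 of 14 higher and 4 lower against macrophages and 9 of 12 higher and 0 lower against promyelocyte-like cells, with 5 of 14 and 3 against neutrophil precursors. Shared Fc receptor and adaptor genes had 0 of 12 higher and 3 lower against macrophages, 3 of 6 and 0 against promyelocyte-like cells, and 1 of 8 and 1 against neutrophil precursors. Cybb, the catalytic subunit of the phagocyte oxidase, stood at 988 CPM in monocytes, 378 in macrophages, 277 in promyelocyte-like cells and 1749 in neutrophil precursors, and 3 of 8 oxidase genes were lower in monocytes than in neutrophil precursors and 0 higher. Against macrophages 2 of 8 oxidase genes were higher and 1 lower, and against promyelocyte-like cells 2 of 7 and 0. Shared oxidase genes had 2 of 7 higher and 0 lower against macrophages, 2 of 7 and 0 against promyelocyte-like cells, and 0 of 7 and 2 against neutrophil precursors. The 1 lower of 8 was near the 8.15% of all genes lower than in macrophages, and of all genes 16.0% were higher than in promyelocyte-like cells.

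Of the matrix metalloproteinase and inhibitor genes, 2 of 12 were higher and 2 lower against macrophages, 8 of 12 and 0 against promyelocyte-like cells, and 3 of 12 and 0 against neutrophil precursors, where all genes together were called higher at 5.84%, 16.0% and 23.4%. The 3 of 12 against neutrophil precursors was thus near the background. Shared genes of this list had 0 of 10 higher and 2 lower against macrophages, 1 of 3 and 0 against promyelocyte-like cells, and 1 of 8 and 0 against neutrophil precursors, and the 10 monocytes with most UMIs of a gene held 93.9% of the UMIs of Mmp13, 93.8% of those of Mmp9, 91.3% of those of Timp3 and 89.0% of those of Mmp14. Mmp8 (neutrophil collagenase) stood at 59.0 CPM in monocytes against 17.5 in macrophages, and the inhibitor gene Timp2 at 22.4 against 349. Mmp14, the membrane protease that the study was about, was at 33.8 CPM (27.8 to 40.8) in monocytes and 198 in macrophages. Against promyelocyte-like cells (8.54 CPM) its log2 difference of 1.24 did not last: it was 0.32 without the 20 monocytes with genes of other cell types and -0.21 with the Ly6c2 limit set per 10000 UMIs. Under the same 2 settings the log2 difference of Mmp14 from macrophages was -3.16 and -3.69 in place of -2.24, and from neutrophil precursors -0.18 and -0.71 in place of 0.74. Pth1r, the parathyroid hormone receptor gene that the study followed in bone, was at 16.5 CPM in monocytes and 15.5 in macrophages, against 524 in chondrocytes, and Irx3 and Irx5 at 3.42 and 2.79 CPM. Ptprc, the leukocyte antigen CD45, was at 304 CPM.

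Monocytes were split by the proliferation genes Top2a and Mki67. At least 3 UMIs of the pair were found in 118 monocytes (53.4%), none in 69 and 1 or 2 in 34. The share with at least 3 was 33.8% of macrophages, 68.2% of promyelocyte-like cells and 80.8% of neutrophil precursors. With each cell at 5000 UMIs, 1 UMI or more of the pair was found in 58.7% of monocytes (51.9% to 65.3%), 43.2% of macrophages, 69.0% of promyelocyte-like cells and 86.7% of neutrophil precursors, against 17.4% of chondrocytes, and the order of the 4 myeloid classes was the same at this equal depth. Against macrophages, 2 of 29 proliferation genes were higher and 1 lower, against promyelocyte-like cells 0 higher and 1 lower, and against neutrophil precursors 1 higher and 3 lower. Of all genes, 5.84% were higher and 8.15% lower than in macrophages, 16.0% and 3.26% than in promyelocyte-like cells, and 23.4% and 6.22% than in neutrophil precursors. The 2 of 29 higher than in macrophages and the 1 of 29 lower than in promyelocyte-like cells were near these shares, and the 0 and the 1 of 29 higher than in the other classes were below them. Depth moved with the split: the 118 cells had a median of 16639.5 UMIs and the 69 a median of 7471, and all 9 Scrublet doublets of the class were among the 118.

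In the monocytes without Top2a and Mki67 UMIs the monocyte identity list summed to 23845 CPM against 11846 in the 118, and most other myeloid lists were also higher in sum, among them the macrophage list (2293 against 903) and the neutrophil granule list (6835 against 5657). Lyz2 stood at 14306 CPM in them against 6301 in the 118, Cxcl2 at 11765 against 3704, S100a4 at 1630.1 against 569.7, Csf1r at 343 against 146 and Cd14 at 3074 against 1496. Wfdc17, a secreted protease inhibitor gene, stood at 725 against 119 CPM, and at 5000 UMIs a cell it was found in 92.5% against 44.9% of cells. Ifi27l2a was found in 76.1% against 33.1% and Pla2g7, a phospholipase gene, in 52.2% against 14.4%. Il1b differed less (4950.1 against 2874 CPM), Il6 stood within 2-fold at 329 against 435 CPM, and Irf8 was higher among the 118 (39.8 against 91.7 CPM). The class II genes H2-Eb1, H2-Aa and H2-Ab1 also led the list for the 69, but 1 cell among them held 88.5% of their H2-Aa UMIs. With at least 10 Ly6c2 UMIs asked for, H2-Aa and H2-Ab1 changed sign, with values given under the processing below. On the other side, after Top2a and Mki67, the leading genes were those of chromosomes and DNA replication (Smc2, Pclaf, Hist1h2ap, Birc5, Hist1h1b, Spc24 and Ccna2). Fabp4, also among the 10 leading genes, changed sign without the 20 cells with genes of other types.

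A second division used the granule protease genes Mpo, Prtn3 and Ctsg, which promyelocytes make in bulk. At least 5 of their UMIs per 10000 were found in 65 monocytes (29.4%), and 156 had fewer. Depth moved with this split as well, with medians of 18743 and 9571 UMIs. Of the 118 monocytes with Top2a and Mki67 UMIs, 46 (39.0%) were on the protease side, and of the 69 without, 6 (8.70%). Prtn3 was found in 54.6% of monocytes at 5000 UMIs, and in 100% of promyelocyte-like cells. In macrophages and B lineage cells, which came through the same suspension and should lack it, the shares were 3.39% and 5.19%. The level of these genes moved with the limit on Elane. With Elane under 2 per 10000, which kept 197 monocytes, the log2 difference of Mpo from macrophages was 2.79 in place of 4.23 and that of Prtn3 4.58 in place of 5.35.

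Beyond the proteases, the leading genes of the 65 monocytes had differing roles. Phgdh, the first enzyme of serine synthesis, stood at 170.0 against 38.7 CPM (1.89, 1.57 to 2.20), and Ass1, an enzyme of arginine synthesis, at 156 against 51.2. G0s2, an inhibitor of fat breakdown, stood at 113 against 24.5 CPM, with 30.6% of its UMIs among the 65 in 1 cell, the chemokine gene Cxcl10 at 267 against 88.3 and the cytokine gene Mif at 401 against 158. C1qbp, a mitochondrial protein gene (239 against 86.7), and Dut, an enzyme of nucleotide metabolism (271 against 106), completed the list. Irf8 stood at 107 against 56.4 CPM. The 156 others had more of Lyz2 (10465 against 4352), Fn1 (1602 against 541), Thbs1 (6392 against 2007) and Apoe (745 against 62.8). At 5000 UMIs a cell, Wfdc17 was found in 75.3% of them and in 26.6% of the 65. The other leading genes of the 156 were Ibsp, Retnlg, Mmp13, Spp1, Serpine2 and 4 globin genes. Except for Mmp13, their differences came largely from the 20 cells with genes of other types. Without those cells their log2 differences lay between −0.78 and 0.17, while that of Mmp13 was −1.78 and stayed past 2-fold.

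**Figure D5:**
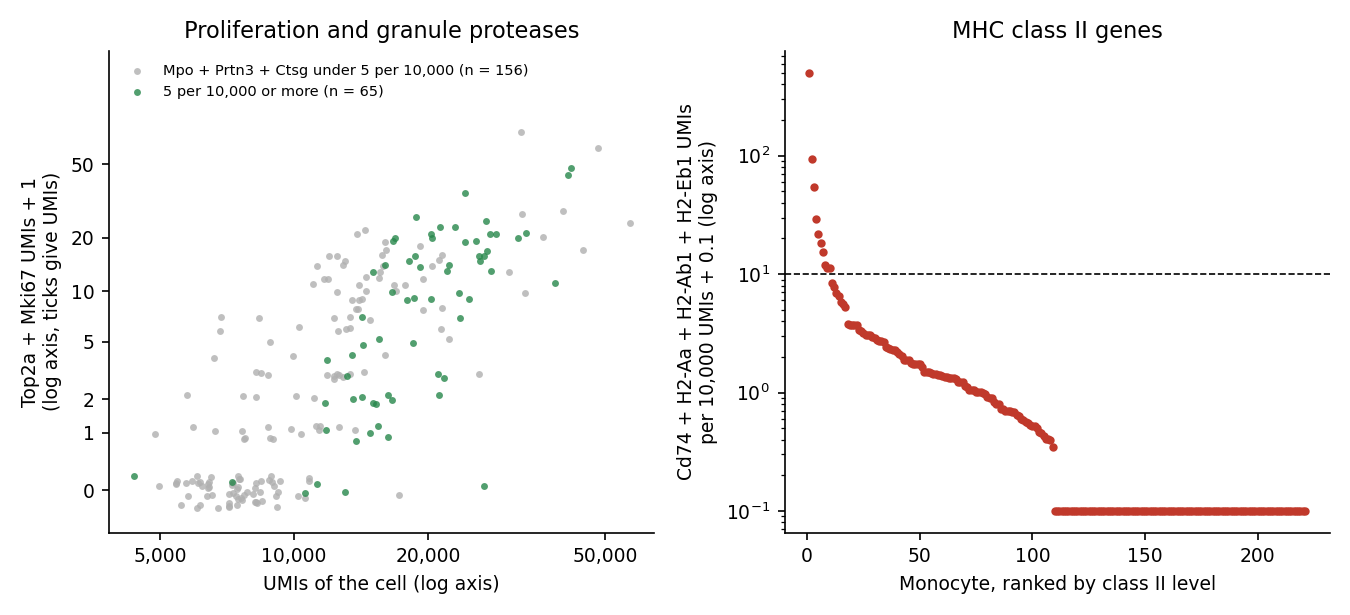
Left, Top2a and Mki67 UMIs of each of the 221 monocytes against the cell's UMIs (both log axes), coloured by whether Mpo, Prtn3 and Ctsg reached 5 UMIs per 10000 (65 cells) or not (156 cells); cells without Top2a and Mki67 UMIs were shallower. Right, UMIs of the 4 class II genes per 10000 UMIs (log axis, 0.1 added) in monocytes ranked from highest to lowest, with a dashed line at 10, which 10 cells reached.

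Genes of antigen presentation by MHC class II were mostly lower than in macrophages, and the UMIs of H2-Aa, H2-Ab1 and H2-Eb1 were held by few monocytes. Cd74, the invariant chain, stood at 206 CPM against 1693 in macrophages, and H2-Aa at 50.6 against 701. Of the list with dendritic cell genes, 4 of 6 measured genes were lower than in macrophages, 6 of 7 higher than in promyelocyte-like cells and 6 of 6 higher than in neutrophil precursors. Against promyelocyte-like cells 5 of the 7, and against neutrophil precursors all 6, reached 20 CPM in monocytes alone, so these last counts follow from the filter. At least 10 UMIs of Cd74, H2-Aa, H2-Ab1 and H2-Eb1 per 10000 were found in 10 monocytes (4.52%), none of them a Scrublet doublet. Ranked, they stood at 502, 94.0, 54.8, 29.1, 21.6, 18.4, 15.4, 11.9, 11.2 and 11.2 per 10000, and the next monocyte at 8.35. The first cell alone held 47.3% of the class II UMIs of all monocytes, and the 10 held 159 of 163 H2-Aa UMIs. The first cell also had 6.46 UMIs of the C1q genes per 10000, the other 9 none, and with the C1q limit at 5 per 10000 the log2 difference of H2-Aa was -4.81 in place of -3.55 from macrophages and 1.25 in place of 2.51 from promyelocyte-like cells. The 10 held 1 of 980 Mpo UMIs, 0 of 417 Ctsg UMIs, 15 of 2799 Prtn3 UMIs and 11 of 5858 S100a8 UMIs. These genes were uneven over all monocytes, and the median monocyte had no Mpo or Ctsg. The top 10 monocytes for each gene held 73.1%, 69.5%, 41.0% and 40.1% of its UMIs. Whether the class II cells differ here from any 10 monocytes was not tested. Of the 10 class II cells, 1 reached the limit of 5 granule protease UMIs per 10000, against 64 of the other 211 (30.3%). Cd209a, a gene of monocyte-derived dendritic cells, had 14 UMIs in all monocytes, 3 of them in these 10, and Zbtb46, a factor of conventional dendritic cells, had none there. With at least 10 Ly6c2 UMIs asked for, the log2 difference of H2-Aa from promyelocyte-like cells was 1.10 in place of 2.51. With the Ly6c2 limit set per 10000 UMIs, H2-Aa came within 2-fold of promyelocyte-like cells (0.98) and of neutrophil precursors (0.93). H2-DMa, which loads peptides, was spread more evenly, with a median of 1.13 UMIs per 10000, 24.4% of its UMIs in 10 cells and a level within 2-fold of that in macrophages (0.45).

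Last, at least 2 UMIs of Csf1r were found in 152 monocytes, 1 in 49 and none in 20. The 20 were shallower, with a median of 8835.5 UMIs against 13371. For 9 of the 10 leading genes of the 20, a single cell held between 78.6% and 100% of their UMIs. The exception was Stfa1, a gene of the stefin family of cysteine protease inhibitors, at 2175 CPM in the 20 against 628 in the 152, found in 70.6% against 43.4% of cells at 5000 UMIs. On the side of the 152, 4 globin genes and Retnlg were among the leading genes, with between 41.5% and 53.9% of their UMIs in 1 cell. Mpo stood at 234 against 40.5 CPM, and 1 cell held all 9 of its UMIs among the 20. Granule proteases at 5 or more per 10000 were found in 46 of 152 (30.3%) and 5 of 20 (25%) of them.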

How the data were processed

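The data were 1 single-cell RNA library, read as a matrix of UMI counts for 31053 genes in 14181 barcodes. The authors deposited these counts, made per the labels with Cell Ranger 3.1.0 on mm10 with added reporter sequences. Seurat 3 is also named in the submitters' processing notes. The counts are raw and whole, and a second table of 98 exogenous sequences was kept out of the cells' totals. No barcode was tied to 1 of the 4 sequencing entries, so they were treated as 1 sample.

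From the counts, cells were classed by fixed limits on marker UMIs. The members and gene lists were chosen with earlier results of these data known. UMIs were summed over the cells of a class and divided by the class total (CPM), and log2 ratios were taken with 10 CPM added. A gene was tested for a 2-fold difference with at least 20 CPM in either class and at least 50 UMIs over both. In each direction the 10 genes with the largest ratio were named among those with at least 100 CPM and 100 UMIs (50 UMIs within the monocytes), with the genes of the lists, and genes of the rule were left out. Some listed genes count in their lists but are not reported here by name. Intervals of levels and of shares of cells are 95% exact Poisson and Clopper-Pearson intervals. Those of log2 differences are 95% normal approximations from the Poisson error of the summed UMIs. All cover counting error only. Shares of cells were taken after random removal of UMIs down to 5000 per cell, without the cells that had fewer. Scrublet, with an expected rate of 10%, marked 588 barcodes, which were kept in the main values. Scripts were tested on simulated counts. Python 3.11.15, NumPy 2.4.6, SciPy 1.17.1, pandas 2.3.3 and Scanpy 1.11.5 were used. Of the gene identifiers, 30934 were found in GENCODE M21, which gave the GRCm38 positions. Alternatives changed in turn the limits on Ly6c2, Ccr2, C1q, Ngp, Elane, mitochondrial share and gene number, the added CPM, the filter, the summing and the cells, but not the limits on Siglech, Cd79a, Col1a1 and Col2a1.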

Additional observations from a re-analysis of the deposited data

Results flagged for a closer look

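The reporter transcript, which the comparisons do not use, gave UMIs in the monocytes. The WPRE element, part of the tdTomato reporter RNA, had 171 UMIs in 69 of the 221 monocytes (31.2%, 25.2% to 37.8%, exact binomial interval). At least 1 WPRE UMI was found in 17.5% of B lineage cells, 19.2% of C1q-rich macrophages, 16.7% of Elane-rich promyelocyte-like cells, 14.5% of Ngp-rich neutrophil precursors and 23.5% of chondrocytes, and in 28.7% of all cells kept. Most monocytes held few: 3 had more than 14, with a maximum of 33. The 20 monocytes with genes of other cell types held 79 of the 171 UMIs and 2 of those 3 cells. WPRE was found in 9 of these 20 (45%) and in 60 of the other 201 (29.9%). The tdTomato coding sequence itself had 1 UMI in 1 monocyte, and the EGFP and Cre sequences had none. Median depth was 12578 UMIs in monocytes, 9418 in B lineage cells, 13407.5 in macrophages and 16487 in promyelocyte-like cells. It was 11017 in neutrophil precursors and 22089 in chondrocytes. Depth thus differs between these classes and these shares were taken without drawing cells down, so the monocytes' higher share was not tested.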

How the results depend on the processing

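No paired analysis was possible because the labels hold 1 group from 1 library. The number of monocytes lay between 142 and 298 over 14 alternatives, and only the limit of at least 10 Ly6c2 UMIs (142) moved it by more than 1.5 times from 221. Genes higher than in macrophages numbered 323 to 500 over 18 alternatives (361 as reported) and genes lower 381 to 706 (504). Against promyelocyte-like cells the numbers were 905 to 1189 (927) and 174 to 305 (189), and against neutrophil precursors 1217 to 1857 (1353) and 343 to 469 (359). Of these, the 305 genes lower than in promyelocyte-like cells, with 1 CPM added in place of 10, was the only count more than 1.5 times from that reported. Of 133 ratios between classes, 114 were past 2-fold, and 110 to 114 of them stayed so in the same direction under each of 17 settings. In size, 91 of the 133 moved by more than 1.5-fold under at least 1 setting, 44 with 1 CPM added and 23 with each cell at 5000 UMIs.

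Of 60 ratios within the monocytes, all past 2-fold, 50 stayed so without the members with genes of other cell types and 55 to 60 under each of the other settings. Some single ratios changed sign. Mmp14 against promyelocyte-like cells went to -0.21 with Ly6c2 at 5 per 10000 UMIs. In the split by Top2a and Mki67, Fabp4 went to -0.83 without the 20 cells with genes of other types, a setting chosen after seeing the data, and H2-Aa and H2-Ab1 went to 0.64 and 0.96 with at least 10 Ly6c2 UMIs. In the split by granule proteases, Retnlg went to 0.17 without those 20 cells, and Serpine2 to 0.18 with Ly6c2 at 5 per 10000 UMIs and to 0.18 without Scrublet doublets. The causes were not tested, beyond the few cells that held these genes. Depth limits what was seen of single cells: a count of 0 in all monocytes allows a level of up to 0.932 CPM, and 3 monocytes were too shallow to be drawn down.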

Other observations

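Crip1, which encodes a LIM domain protein, and genes of the S100 family were chosen for description after their values were seen. In monocytes, C1q-rich macrophages, Elane-rich promyelocyte-like cells and Ngp-rich neutrophil precursors, in that order, Crip1 stood at 1425, 644, 87.7 and 40.6 UMIs per 1000000 UMIs, S100a6 at 1071, 449, 56.3 and 145, S100a10 at 862, 599.5, 120.4 and 51.8, and S100a11 at 901, 245, 442 and 908. Crip1 and S100a6 were at least 2-fold higher in monocytes than in each of the other 3 classes. Without the barcodes that Scrublet marked, the log2 difference of Crip1 from neutrophil precursors was 6.42 in place of 4.82. The matrix gene Emilin2 stood at 290.1, 78.2, 12.9 and 7.36, and Pid1, a gene of insulin and lipoprotein receptor signalling, at 177, 81.9, 2.17 and 4.51. The galectin gene Lgals1 (1391, 1496, 632 and 68.2) was nearer to macrophages, as was Pld4, a gene of the phospholipase D family (275, 205, 18.8 and 6.69).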
